A study of Mus musculus with 11 samples.

Results

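The genes described here copy the genome, take a cell from G1 into S phase and carry it through mitosis, and 48 of them were listed by name for these roles. There were 20 genes of replication, 11 of G1 control and 17 of G2 and mitosis. Every probe set annotated to a listed gene was taken, which gave 68 of the 24899 probe sets on the 2 array types, and 46 of the 48 genes among the 13675 named on them. Ccnb1 had no probe set, and Tyms was matched only by 2 probe sets that carry several gene symbols, so neither has a value.

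The tissue was the trigeminal ganglion, which holds the sensory neurons of the face, dissected at embryonic day 13.5 from mice of 3 Pou4f1 genotypes: wild-type, heterozygote and knockout. Pou4f1 encodes the transcription factor Brn3a. About 10 to 12 ganglia of the same genotype were combined for each array. The U74Av2 type was run on 2 wild-type, 2 heterozygote and 2 knockout pools, and the U74Bv2 type on 1, 2 and 2. No label gives the strain, the deleted part of the gene or separate litters, so p-values speak only of the spread between arrays, which may be technical. The design text states that axon growth is already disturbed at this age and that most of the neuronal death comes later.

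Replication starts when the origin recognition complex, with Cdc6, loads the Mcm2 to Mcm7 helicase, which Cdc45 helps to activate, and DNA polymerases then work on the clamp Pcna with nucleotides made by ribonucleotide reductase. Entry into S phase is driven by cyclin D with Cdk4 and cyclin E with Cdk2, which release E2F from Rb, and is held back by the Cdkn1 inhibitors. In mitosis Cdk1 with cyclins A and B, the Polo and Aurora kinases and the Bub and Mad checkpoint proteins act before Cdc20 opens the way to anaphase. In an embryonic sensory ganglion dividing cells are precursors and glia, while sensory neurons have left the cell cycle.

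Letters known from cell cycle promoters were searched in these genes and in other genes of the same roles. E2F factors bind short GC-rich letters, and the late genes are known for the cell cycle homology region (CHR) and for CCAAT boxes, so these were looked for on both strands from 250 bases before to 50 bases after each RefSeq start site (GRCm38.p6), a window held for 40 of the 48 genes. The E2F letters were TTTCCCGC, TTTGGCGC, TTTCGCGC or TTTGCCGC, which can overlap one another, the CHR was TTTGAA, and the third was CCAAT. An E2F match was present in 8 of 18 measured replication genes (44.4%), 1 of 7 G1 genes and 1 of 13 mitosis genes (7.69%), against 2.6% of all 27025 genes in the promoter table. A CHR was present in 2 of the 18 replication genes (11.1%), 0 of the 7 G1 genes and 10 of the 13 mitosis genes (76.9%), against 20.2% of all genes. All 10 of those mitosis genes also held CCAAT, a pair found in 7.97% of all genes, while CCAAT, with or without a CHR, was present in 15 of 18 replication genes and 41.1% of all genes. The other lists of each role were partly unlike the members. E2F letters were in 8 of 29 other replication genes (27.6%), 7 of 16 other G1 genes (43.8%) and 3 of 41 other mitosis genes (7.32%). A CHR was in 6 (20.7%), 7 (43.8%) and 24 (58.5%) of them. The high mitosis share of the CHR was thus seen in both sets of genes, while the low G1 shares of the members were not. A match describes letters in a window and is not a binding site.

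The sequences below show the letters in place for Mcm6, Mcm5 and Cdk1, the 3 measured members with an E2F match in the upstream part that lies outside any RefSeq gene, and for Cdc20, Mki67 and Top2a, the 3 other mitosis genes with a CHR and a CCAAT there whose knockout difference was largest. That choice was made with the values known. Each reads 5′ to 3′ towards the start site, and capitals mark matches to the letters above on either strand.
Mcm6, chr1:128359706-128359955, minus strand: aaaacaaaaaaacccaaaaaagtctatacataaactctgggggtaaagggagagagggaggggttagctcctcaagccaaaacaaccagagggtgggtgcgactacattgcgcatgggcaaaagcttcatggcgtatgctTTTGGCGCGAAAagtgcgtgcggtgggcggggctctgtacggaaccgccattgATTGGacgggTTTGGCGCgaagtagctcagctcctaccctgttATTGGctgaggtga
Mcm5, chr8:75109259-75109467, plus strand: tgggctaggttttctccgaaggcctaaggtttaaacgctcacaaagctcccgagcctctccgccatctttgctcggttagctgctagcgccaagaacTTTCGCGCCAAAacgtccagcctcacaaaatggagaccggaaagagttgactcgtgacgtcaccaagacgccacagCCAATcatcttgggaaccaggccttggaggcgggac
Cdk1, chr10:69352913-69353162, minus strand: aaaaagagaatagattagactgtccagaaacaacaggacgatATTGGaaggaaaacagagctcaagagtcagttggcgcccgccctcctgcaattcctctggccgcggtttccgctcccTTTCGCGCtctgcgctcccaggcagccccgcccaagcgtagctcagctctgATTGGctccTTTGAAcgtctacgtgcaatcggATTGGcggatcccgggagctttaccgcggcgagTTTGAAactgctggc
Cdc20, chr4:118437344-118437593, minus strand: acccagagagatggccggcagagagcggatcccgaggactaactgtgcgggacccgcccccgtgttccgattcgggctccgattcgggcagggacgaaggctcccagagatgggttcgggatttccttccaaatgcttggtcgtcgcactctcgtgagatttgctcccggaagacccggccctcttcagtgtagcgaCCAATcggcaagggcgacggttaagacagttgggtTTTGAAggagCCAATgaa
Mki67, chr7:135716451-135716629, minus strand: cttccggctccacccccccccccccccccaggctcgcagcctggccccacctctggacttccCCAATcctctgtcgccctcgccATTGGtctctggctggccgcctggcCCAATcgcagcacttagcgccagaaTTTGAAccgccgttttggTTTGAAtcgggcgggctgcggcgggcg
Top2a, chr11:99024200-99024439, minus strand: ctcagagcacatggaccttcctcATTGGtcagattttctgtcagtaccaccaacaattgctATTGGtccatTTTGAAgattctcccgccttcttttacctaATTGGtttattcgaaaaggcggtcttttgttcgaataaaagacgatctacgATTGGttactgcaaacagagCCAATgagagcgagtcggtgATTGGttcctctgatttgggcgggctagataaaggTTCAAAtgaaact
The capital run of Mcm5 is a pair of overlapping E2F matches on opposite strands, and so is the longer run of Mcm6. Cdk1 holds 1 E2F match, 2 CHR and 3 CCAAT in this stretch, and Top2a holds 2 CHR and 6 CCAAT.

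On U74Av2 the members lay higher in knockout than in wild-type ganglia by a small amount, and no single gene was called in the fit on genotype. Of 65 member probe sets, 43, standing for 37 genes, passed the filter on dim probe sets and were tested. None of the 43 was called at a limma adjusted p under 0.05 (19 of 7453 probe sets were called over the whole array, 0.255%), and the lowest adjusted p was 0.452, for Ccnd1. At an unadjusted p under 0.05, 6 of the 43 passed, all 6 with a higher knockout, where 2.19% of all tested probe sets did so. The standard error of a member's difference was 0.21 to 0.51 on the log2 scale, beside a median difference of 0.34.

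With the brightest probe set taken for each gene, 34 of 37 genes had a positive knockout minus wild-type difference, where 52.6% of all tested probe sets did. The median of the 37 genes was 0.34 on the log2(signal + pseudocount) scale, a fold of 1.27, and the median of all tested genes was 0.01. Both knockout arrays stood above both wild-type arrays for 27 of 43 probe sets (62.8%), against 16.1% of all tested, and for 0 of 43 did both stand below, against 12.4%. Both knockout arrays stood above all 4 other arrays for 21 of 43 (48.8%), against 8.53%. The filter keeps a dim probe set more readily where 1 genotype is bright, so the counts were also taken without it. Over all 65 member probe sets the same counts were 36 (55.4%), against 18.2%, and 28 (43.1%), against 8.66%. Over all 45 genes without the filter 41 differences were positive, with a median of 0.33.

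The roles differed in their medians on U74Av2, but the difference between them was not tested and the order did not hold throughout. The median knockout minus wild-type difference was 0.42 (1.34-fold) over 15 replication genes, 0.34 (1.27-fold) over 13 mitosis genes and 0.20 (1.15-fold) over 9 G1 genes. Without wild-type array 2 the medians were 0.43, 0.27 and 0.38, so that G1 lay above mitosis. Positive differences numbered 13 of 15, 13 of 13 and 8 of 9. Both knockout arrays stood above all 4 others for 10 replication (66.7%), 7 mitosis (53.8%) and 1 G1 gene (11.1%). The share over all tested genes was 8.56%, and the G1 share was near it. In bulk RNA more dividing cells and more transcript per dividing cell cannot be told apart.

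**Figure D1:**
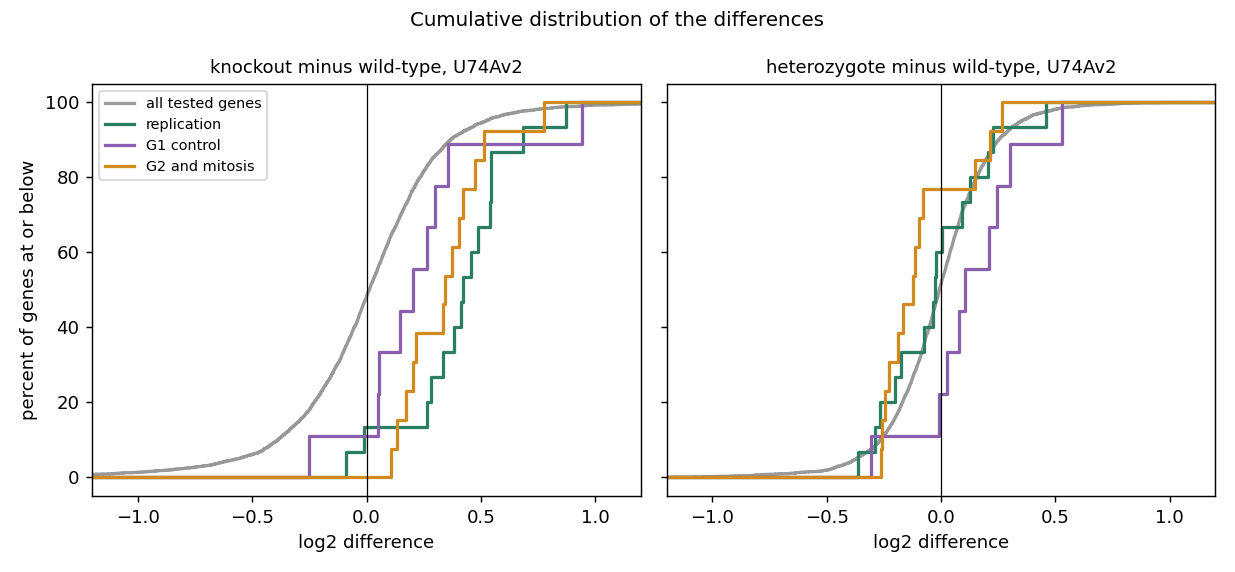
Percent of genes (vertical axis) at or below a given log2 difference (horizontal axis) for all tested genes on U74Av2 and for the tested replication, G1 control and G2 and mitosis genes, in knockout minus wild-type (left) and heterozygote minus wild-type (right). On the left the medians of the 3 roles are 0.42, 0.20 and 0.34 against 0.01 for all tested genes; on the right they are -0.03, 0.10 and -0.12.

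Among the loaders of the helicase, Cdc6 gave signals of 166 and 194 in wild-type, 136 and 121 in heterozygote and 213 and 239 in knockout arrays, a knockout minus wild-type difference of 0.26. Both knockout arrays were the highest of the 6. The origin recognition genes Orc1 and Orc2 and the helicase gene Mcm6 were measured only by probe sets below the filter. Mcm6 gave 26.7 and 20.4, 28.4 and 8.6, and 47.5 and 43.8, so its knockout arrays were again the highest, at signals where little can be read from the size. Orc1 overlapped between genotypes, at 113.5 and 74.2, 96.4 and 84.9, and 131.5 and 95.7. The brighter Orc2 probe set also overlapped, at 142 and 92.1, 37.4 and 47.5, and 64.6 and 196, while the knockouts were highest on the dimmer. Prim1, another replication gene below the filter, overlapped at 46.6 and 102, 11.4 and 74.6, and 84.6 and 93.3.

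Of the other helicase subunits, Mcm5 stood furthest from wild-type. Its signal was 610.4 and 582 in wild-type, 609.9 and 553 in heterozygote and 920.2 and 1061 in knockout ganglia. On this probe set neither control genotype came near the knockout arrays, and the difference of 0.69 ± 0.21 (SE, n = 2 arrays each) had a limma adjusted p of 0.639. Another Mcm5 probe set (162102_r_at), of relaxed design and below the filter, did not show this. It gave 88.6 and 61, 195 and 136.7, and 99.1 and 48, so the knockouts overlapped wild-type and lay below the heterozygotes. Mcm2, a subunit of the same ring, gave 487 and 458, 456 and 469, and 754 and 669.8, a difference of 0.54 ± 0.21 (limma adjusted p = 0.875). The values of Mcm7 were 414 and 299, 474 and 249.3, and 508 and 567, a difference of 0.54 ± 0.32 (limma adjusted p = 1.00), with the control arrays themselves spread widely. Mcm3 (0.33, on a probe set of relaxed design) and Mcm4 (0.46) also had both knockout arrays above both wild-type arrays. Another Mcm3 probe set (100062_at), below the filter, overlapped, at 154 and 134 in wild-type, 103 and 74.4 in heterozygote and 55.3 and 228 in knockout. For Mcm4 the heterozygote arrays, at 444 and 425, overlapped the knockouts, at 443 and 624. Cdc45, the helicase activator, ran from 75.6 to 373 and followed the array number, as given further on.

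The enzymes that supply nucleotides lay higher in both knockout arrays. Rrm1, the large subunit of ribonucleotide reductase, gave 252 and 268 in wild-type, 365 and 267 in heterozygote and 529 and 505 in knockout ganglia. At 0.87 ± 0.24, a fold of 1.83, it had the largest difference of the tested replication genes (limma adjusted p = 0.546). Rrm2, the small subunit, gave 222 and 278.0, 203 and 186.0, and 334 and 367, a difference of 0.42. Chek1, the kinase that guards stalled forks, stood at 176 and 162, 202 and 176, and 270.3 and 268, a difference of 0.54 ± 0.24, with no overlap between knockout and the rest.

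At the fork itself the members were less uniform. The clamp Pcna gave 974 and 888, 866 and 771, and 1644 and 1067, so both knockout arrays were highest but far apart (difference 0.49 ± 0.26, limma adjusted p = 1.00). Pola1, the catalytic subunit of polymerase alpha, gave 117 and 134, 139.7 and 134, and 168 and 189.9, a difference of 0.38. By contrast, Lig1, the ligase that joins Okazaki fragments, gave 519 and 397, 454 and 299, and 542 and 372, a difference of -0.01 ± 0.30 (limma adjusted p = 1.00). Rfc1, of the clamp loader, gave 257 and 219, 315 and 154, and 211 and 229, a difference of -0.09 ± 0.33 (limma adjusted p = 1.00). Both knockout arrays of Rfc1 lay inside the range of the controls, while those of Lig1 were the highest and the second lowest of the 6. Rpa2, which coats single-stranded DNA, was highest in a heterozygote array at 217.

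**Figure D2:**
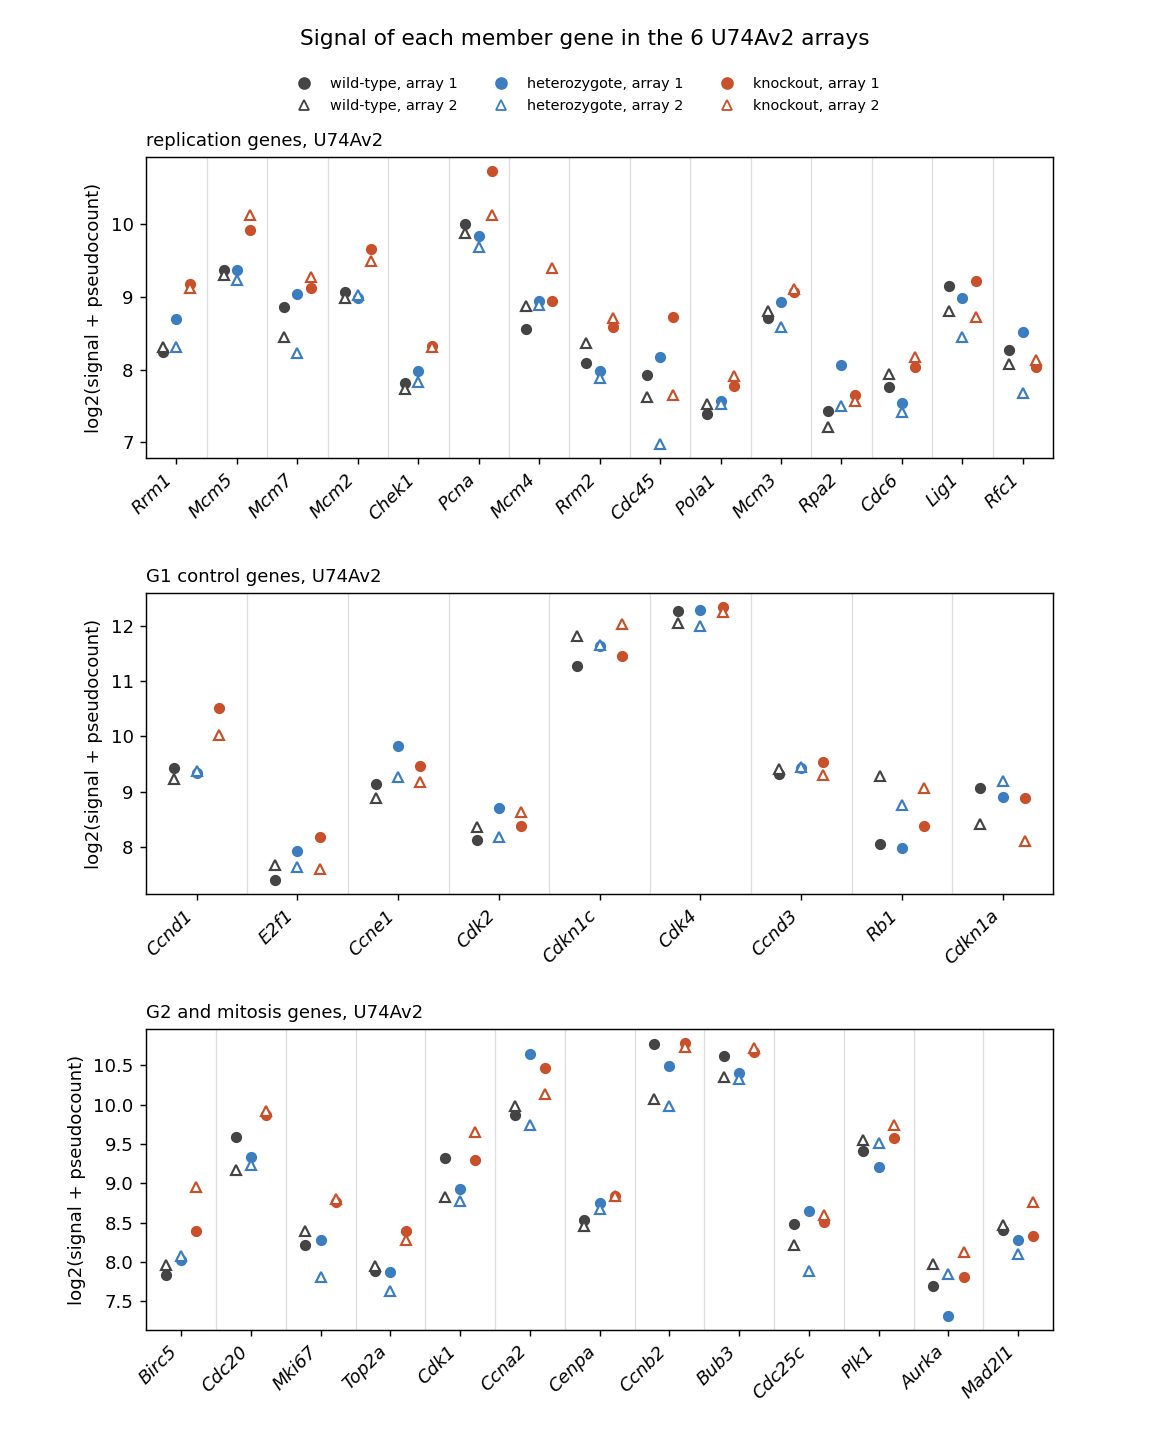
Log2(signal + pseudocount) of each tested member gene (1 probe set per gene) in the 6 U74Av2 arrays, by role, with genes ordered by their knockout minus wild-type difference; filled circles are number 1 arrays and open triangles number 2 arrays. Both knockout points lie above all other points for 10 of 15 replication, 1 of 9 G1 and 7 of 13 mitosis genes, against 8.56% of all tested genes.

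Ccnd1, encoding cyclin D1, had the largest difference of the members tested on U74Av2. Its brighter probe set (94232_at) gave 642 and 551 in wild-type, 596 and 614 in heterozygote and 1418 and 996 in knockout ganglia. The knockout arrays were apart from the other 4, and the difference was 0.94 ± 0.24, a fold of 1.92 (limma adjusted p = 0.452). With the array number added as a block the limma adjusted p was 0.0430, but no label says what the number marks. A second Ccnd1 probe set (94231_at) disagreed. It gave 317 and 217, 284 and 228, and 376 and 219, a difference of 0.11 ± 0.32 with overlapping groups. Cyclin D2 was measured by 1 probe set below the filter, at 42.8 and 107 in wild-type, 71.3 and 66.6 in heterozygote and 294 and 200.4 in knockout. Cyclin D3 lay at 589 and 631, 639.7 and 651, and 689 and 584, where the genotypes overlapped (difference 0.05).

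The cyclin E and Cdk members showed no such separation. Ccne1, encoding cyclin E1, was highest in the heterozygotes, at 854 and 570.1, against 514 and 426 in wild-type and 653 and 531 in knockout, a knockout minus wild-type difference of 0.30 ± 0.27 (limma adjusted p = 1.00). Its kinase partner Cdk2 differed by 0.27, with both knockout arrays above wild-type but overlapping the heterozygotes. Cdk4 was the brightest member of all, at 4860.2 and 4160, 4941 and 4033, and 5126 and 4834, a difference of 0.15 ± 0.21 (limma adjusted p = 1.00). E2f1, the first of the E2F factors, gave 119 and 155, 194 and 149.7, and 240.2 and 146 on a probe set of relaxed design, a difference of 0.36 ± 0.31 (limma adjusted p = 1.00). Rb1, the pocket protein that holds E2F, differed by 0.05 ± 0.48, the difference being small beside its error.

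The Cdk inhibitors had no common direction. For Cdkn1a, which encodes p21 and is a target of p53, the probe sets disagreed in sign. The brighter one (94881_at) gave 487 and 292 in wild-type, 429 and 533 in heterozygote and 422 and 225 in knockout, a difference of -0.25 ± 0.35 (limma adjusted p = 1.00). The other (98067_at) gave 194 and 188, 209 and 215, and 453 and 281, a difference of 0.76 ± 0.28 (limma adjusted p = 0.818) with the knockout arrays above the rest. Which transcripts each probe set reads was not examined, so no direction is given for Cdkn1a. Of 6 tested p53 target genes, 3 had a positive difference and the median was -0.10, with 0 called by limma. At an unadjusted p under 0.05, 3 of the 6 passed, in both directions, where 381 of 7453 tested probe sets did. Cdkn1c, which encodes p57, was bright and followed no genotype, at 2415 and 3554, 3124 and 3180, and 2756 and 4152 (difference 0.20 ± 0.28, limma adjusted p = 1.00). Cdkn1b, which encodes p27, lay below the filter on both of its probe sets. The brighter one overlapped between genotypes, at 96.7 and 63, 176 and 43.9, and 71.9 and 164.

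Of the mitosis genes tested on U74Av2, Birc5, which encodes survivin of the chromosomal passenger complex, stood furthest from wild-type. It gave 178 and 199 in wild-type, 209.8 and 219 in heterozygote and 285 and 447 in knockout ganglia. All 4 controls lay below both knockouts, and the difference was 0.78 ± 0.27 (limma adjusted p = 0.781). Cdc20, the activator of the anaphase-promoting complex whose upstream sequence is shown above, gave 718 and 527, 593 and 553, and 883 and 915, a difference of 0.51 ± 0.23 (limma adjusted p = 1.00).

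The proliferation marker Mki67 was read by 2 tested probe sets with the same order of groups. The brighter (99457_at) gave 248 and 286, 261 and 175, and 384 and 394, a difference of 0.47 ± 0.26 (limma adjusted p = 1.00), and the other differed by 0.39. In both, the knockout arrays were the 2 highest. Top2a, the topoisomerase that untangles sister chromatids, gave 187 and 197, 183 and 149, and 286 and 262, a difference of 0.42 with no overlap. Cenpa, the histone of the centromere, differed by 0.34, also with no overlap, but its heterozygote arrays (379 and 360) lay close to the knockouts (409 and 408).

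The kinase Cdk1 and its cyclins overlapped between genotypes. Cdk1 gave 592 and 403 in wild-type, 435 and 388 in heterozygote and 581 and 757 in knockout, a difference of 0.40. Ccnb2, encoding cyclin B2, gave 1701 and 1029, 1388 and 959, and 1712 and 1650.4, a difference of 0.33 ± 0.30 (limma adjusted p = 1.00). For both genes the first wild-type array was at the knockout level and the second was not. Ccna2, encoding cyclin A2, gave 887 and 960 in wild-type and 1363 and 1075 in knockout, a difference of 0.37 without overlap. Its highest signal was in a heterozygote array, at 1551.

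On U74Av2 the Polo kinase Plk1, the Aurora kinase Aurka, Cdc25c and the tested checkpoint genes Bub3 and Mad2l1 had small differences. Bub3 gave 1515 and 1250, 1304 and 1230, and 1571 and 1642, so the knockouts were highest by a narrow margin (difference 0.22 ± 0.21, limma adjusted p = 1.00). The 3 tested probe sets of Plk1 differed by 0.12 to 0.37, Aurka by 0.13, Mad2l1 by 0.11 and Cdc25c by 0.20. Bub1 and Aurkb were measured only below the filter, where the brightest Bub1 probe set gave 72.9 and 86.2, 40.4 and 61.3, and 103 and 134. Aurkb was highest in a wild-type array and overlapped, at 291 and 75.6, 72.2 and 79.5, and 117 and 79.1.

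**Figure D3:**
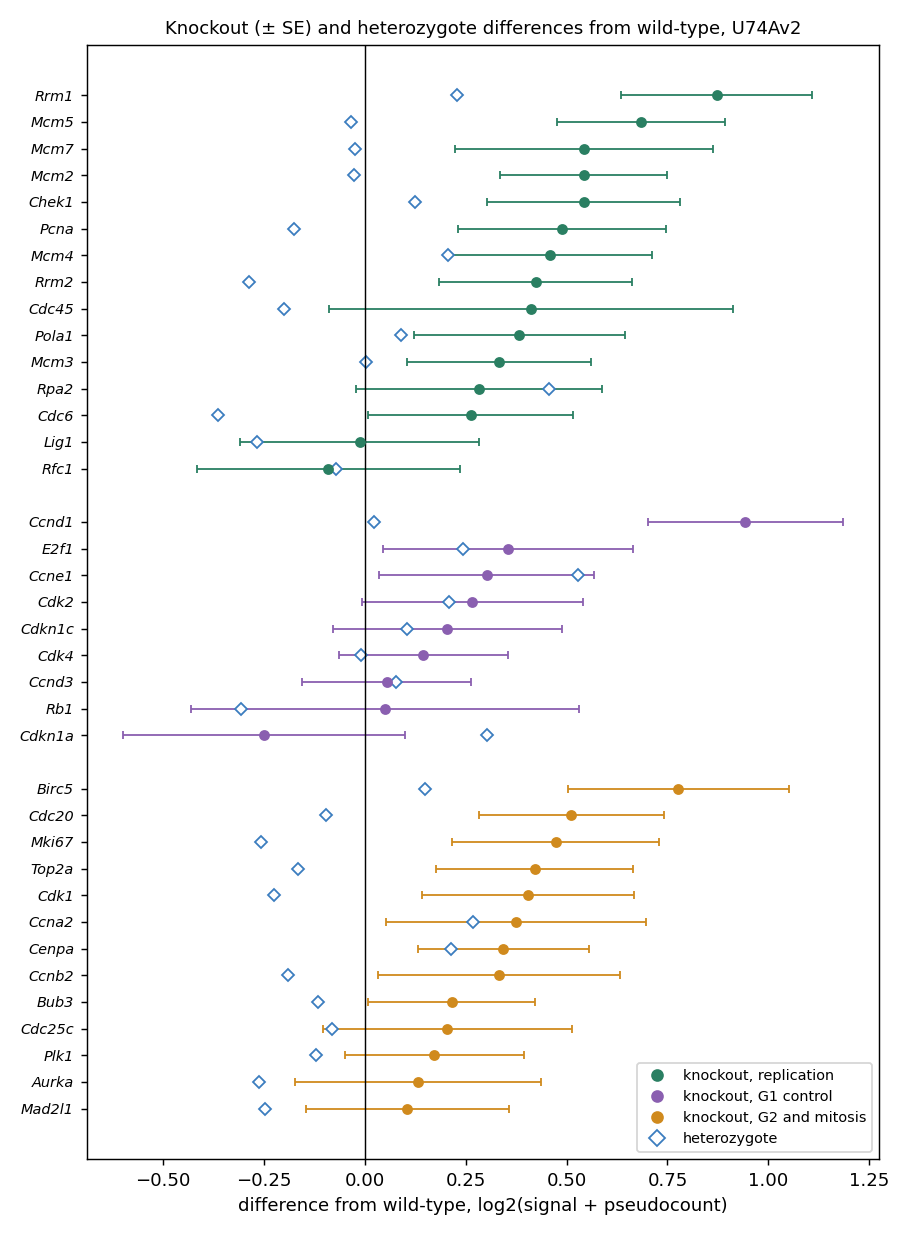
Knockout minus wild-type difference of each tested member gene on U74Av2 (filled points, with bars of 1 SE) and heterozygote minus wild-type difference (open diamonds), on the log2(signal + pseudocount) scale. Ccnd1 (0.94), Rrm1 (0.87) and Birc5 (0.78) lie furthest to the right. The heterozygote diamonds run from -0.36 to 0.53, with 16 of 37 above 0 and a median of -0.03.

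U74Bv2 carried 3 members, and Bub1b had the largest knockout difference of any member on either array type. Bub1b encodes BubR1, which with Bub3 and Mad2l1 inhibits Cdc20. It gave 122 in the only wild-type array, 285 and 210.3 in heterozygote and 387 and 436 in knockout ganglia, so the heterozygotes lay between. The knockout minus wild-type difference was 1.42 ± 0.32, a fold of 2.68 (limma adjusted p = 0.0978, where 104 of 7446 probe sets, 1.4%, were called). Without heterozygote array 1 the limma adjusted p of Bub1b was 0.04997, which passes the threshold. The fit assumes that the lone wild-type array varies like the other groups, and both knockout arrays stood above that 1 array for 38.1% of all tested probe sets. Bub3 on this array type differed by 0.21 ± 0.22 (limma adjusted p = 0.823) from signals of 868, of 977 and 810.4, and of 954 and 1078, close to its U74Av2 difference. Ccnd3 gave 251, 308 and 304, and 283 and 209.7, a difference of -0.03 ± 0.32 (limma adjusted p = 0.988).

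The heterozygotes did not take a middle place over the U74Av2 members. Heterozygote minus wild-type had 0 member probe sets called (0 of 7453 over all, 0%) and 0 at an unadjusted p under 0.05 (0.698% of all tested). Of the 37 genes, 16 differences were positive, where 49% of all tested probe sets were, with a median of -0.03, near the median of all tested genes of -0.01. By role the medians were -0.03 for replication, 0.10 for G1 and -0.12 for mitosis. Rpa2 (0.46) and Ccne1 (0.53) were the members most above wild-type, and Cdc6 (-0.36) lay most below.

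Against the heterozygotes, the knockouts gave values like those against wild-type, from the same knockout arrays, so the comparisons are not independent. None of 43 member probe sets was called in knockout minus heterozygote (0.188% of all tested were), and the lowest adjusted p was 0.462. At an unadjusted p under 0.05 there were 11 of 43, all higher in knockout, against 2.37% of all tested. The median over 37 genes was 0.35, with 32 positive (53.1% of all tested probe sets were), and by role it was 0.57 for replication, 0.10 for G1 and 0.39 for mitosis. Ccnd1 (0.92), Mki67 (0.73), Mcm5 (0.72) and Rrm2 (0.71) had the largest differences. On U74Bv2 Bub1b differed by 0.64 ± 0.26 (limma adjusted p = 0.457, with 1.71% of all tested probe sets called).

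The arrays are numbered 1 and 2 within each genotype and type, and no label says what the number marks, but it went with large differences. On U74Av2, number 1 minus number 2 was called for 1820 of 7453 probe sets, 24.4%. Of the 43 member probe sets 4 were called, a smaller share of 9.30%. Cdc45 lay higher in number 1 arrays of each genotype, at 192 against 148 in wild-type, 238 against 75.6 in heterozygote and 373 against 149.9 in knockout (0.86, limma adjusted p = 0.0349). Lig1 was also higher in number 1 (0.46, limma adjusted p = 0.0402). The dimmer Cdk4 probe set (101017_at) fell in number 1 by 0.97 (limma adjusted p = 0.00741), from signals of 518 against 1376 in wild-type and 615 against 1096 in knockout. Rb1 fell by 0.90 (limma adjusted p = 0.0109), at 217 against 576, 203 against 383 and 282 against 490.4. On U74Bv2 none of 3 members was called by number (15 of 7446, 0.201%).

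Taken apart, each number gave most members higher in knockout than in wild-type. In number 1 arrays 33 of 37 differences were positive (median 0.31), and in number 2 arrays 32 of 37 (median 0.34). In both numbers it was 29 of 37 genes (78.4%), against 32.6% of all tested probe sets. Replication genes had medians of 0.39 and 0.35 in numbers 1 and 2, and G1 genes 0.25 and 0.21. In number 2 arrays only 5 of 9 G1 genes were positive (55.6%), near the 51.7% of all tested genes. Positive in both numbers were 5 of 9 G1, 13 of 15 replication and 11 of 13 mitosis genes. Mitosis genes had 0.16 and 0.38, the smaller in number 1. The numbers gave unlike values for Cdk1 (-0.03 and 0.83), Ccnb2 (0.01 and 0.66), E2f1 (0.78 and -0.07) and Cdc45 (0.81 and 0.02). Ccnd1 (1.09 and 0.80), Rrm1 (0.94 and 0.81), Mcm2 (0.58 and 0.50) and Chek1 (0.50 and 0.58) were similar in both. With 1 array a genotype in each number, these values have no replicate check.

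**Figure D4:**
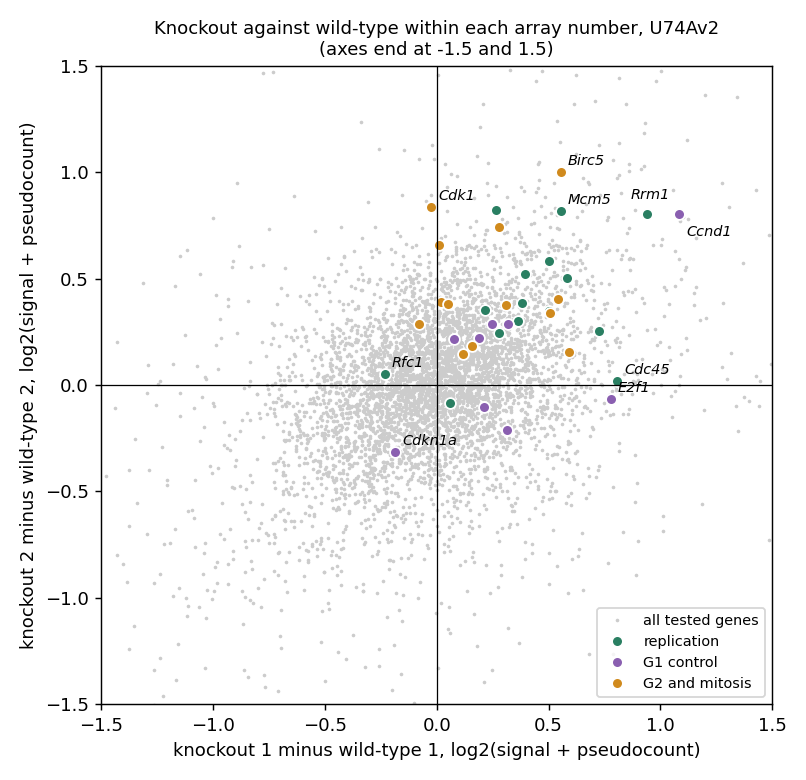
Knockout minus wild-type difference in number 1 arrays (horizontal axis) and in number 2 arrays (vertical axis) for each tested gene on U74Av2, on the log2(signal + pseudocount) scale, with all tested genes in grey and the members coloured by role. Of the 37 members 29 lie to the upper right of both zero lines; Cdk1 lies on the vertical axis and Cdc45 and E2f1 near the horizontal one.

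Other genes of the same pathway came from lists that hold no member, and most of the replication and mitosis genes among them also had positive differences. In knockout minus wild-type on U74Av2, 18 of 24 other replication genes were positive with a median of 0.32, and 27 of 31 other mitosis genes with a median of 0.21. Of 9 other G1 genes 4 were positive, with a median of -0.03. None of them was called by limma. At an unadjusted p under 0.05, 3 of 24 replication, 1 of 31 mitosis and 1 of 9 G1 genes passed, in both directions. Of all tested probe sets 381 of 7453 did so. Dut, the dUTPase that keeps uracil out of DNA, was lower in knockout, at 159 and 191 in wild-type, 238 and 191 in heterozygote and 66.7 and 43.1 in knockout (-1.11 ± 0.29, limma adjusted p = 0.475). This was the largest difference of the 3 lists on U74Av2 and opposite to that of most replication genes. Mycn, a Myc factor of the G1 list, was also lower (-0.54). Uhrf1 (0.74), which brings Dnmt1 to new DNA, Tipin (0.79) of the replication fork and Ckap2 (0.74) of the spindle were higher. The heterozygotes were also above wild-type for Tipin (0.71) and Ckap2 (0.53), and by 0.09 for Uhrf1. The brightest of each list were Zwint of the kinetochore (0.48), Dnmt1, the maintenance DNA methylase (0.26), and Tfdp1, the partner of E2F (0.06). On U74Bv2 every difference from wild-type rests on the only wild-type array. Heterozygote minus wild-type was positive there for 10 of 13 other mitosis, 5 of 6 other G1 and 2 of 4 other replication genes. The knockout minus heterozygote medians were 0.19, 0.15 and -0.10. In knockout minus wild-type on U74Bv2, 11 of 13 other mitosis genes were positive with a median of 0.39. The same held for 5 of 6 other G1 genes with 0.27 and 4 of 4 other replication genes with 0.19, so G1 was not the lowest there. In these 3 lists 0 genes were called by limma. At an unadjusted p under 0.05, 1 of the 13 mitosis genes passed and none of the others, where 834 of 7446 tested probe sets did.

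Markers of several cell types also lay higher in knockout on U74Av2, and their part in the members' values was not tested. Neuronal precursor genes had 7 of 8 positive differences with a median of 0.43, and their summed signal over 11 measured genes was 5605 to 6250 in wild-type, 5383 to 5576 in heterozygote and 7833 to 8396 in knockout arrays. Schwann and satellite glia genes had 6 of 8 positive and a median of 0.29. Their sums over 9 genes were 16648 to 17783 in wild-type, 18375 to 20493 in heterozygote and 20512 to 23866 in knockout. Fabp7 made up the largest part of these sums, at 9736 and 11460, 14450 and 11880, and 16258 and 12753. In heterozygote minus wild-type 2 of the 8 tested glia genes were positive, with a median of -0.06. Mesenchyme genes had 10 of 10 positive and a median of 0.35. Their sums over 13 genes were 11847 to 12408 in wild-type, 12063 to 13444 in heterozygote and 15004 to 15771 in knockout. For comparison, the 19 replication genes summed to 5230.2 to 5530.1 in wild-type and 7380 to 7875 in knockout, and the 15 mitosis genes to 6768 to 8100.4 and 9168 to 9518. The precursor genes Neurod1 and Neurod4 differed most, with Neurod4 at 98.2 and 120 in wild-type and 522 and 800.4 in knockout (2.14, limma adjusted p = 0.157), and Neurod1 was called higher on U74Bv2 (1.55).

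Postmitotic sensory neuron genes lay partly lower. They summed to 77316 to 80463 in wild-type, 86559 to 104149 in heterozygote and 75660 to 80779 in knockout, with 6 of 14 positive and a median of -0.12. Both knockout arrays stood below all 4 others for 6 of the 14 (42.9%), against 7.66% of all tested probe sets, and 1 of 14 was positive against heterozygote. The largest negative differences after Avil were those of the sodium channel gene Scn9a (-1.07), the neuronal filament gene Prph (-0.87), Scn10a (-0.78) and Elavl4 (-0.67), none of them called. The sum is carried by bright genes that differed less, such as Tubb3, the neuronal tubulin, at 21165 and 17183 in wild-type and 26861 and 22418 in knockout (0.36). Endothelial genes had 3 of 6 positive and a median of -0.02, macrophage genes 3 of 4 and 0.11, and red blood cell genes 5 of 7 and 0.16. Red blood cell sums were 37927 to 45705 in wild-type, 45070 to 67280 in heterozygote and 48458 to 59734 in knockout. A heterozygote array was thus the highest for that list. In each of these lists 0 genes were called, except that Avil of the neuron list fell in knockout (-2.72). No measured gene of any list was listed at 0 in any array.

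**Figure D5:**
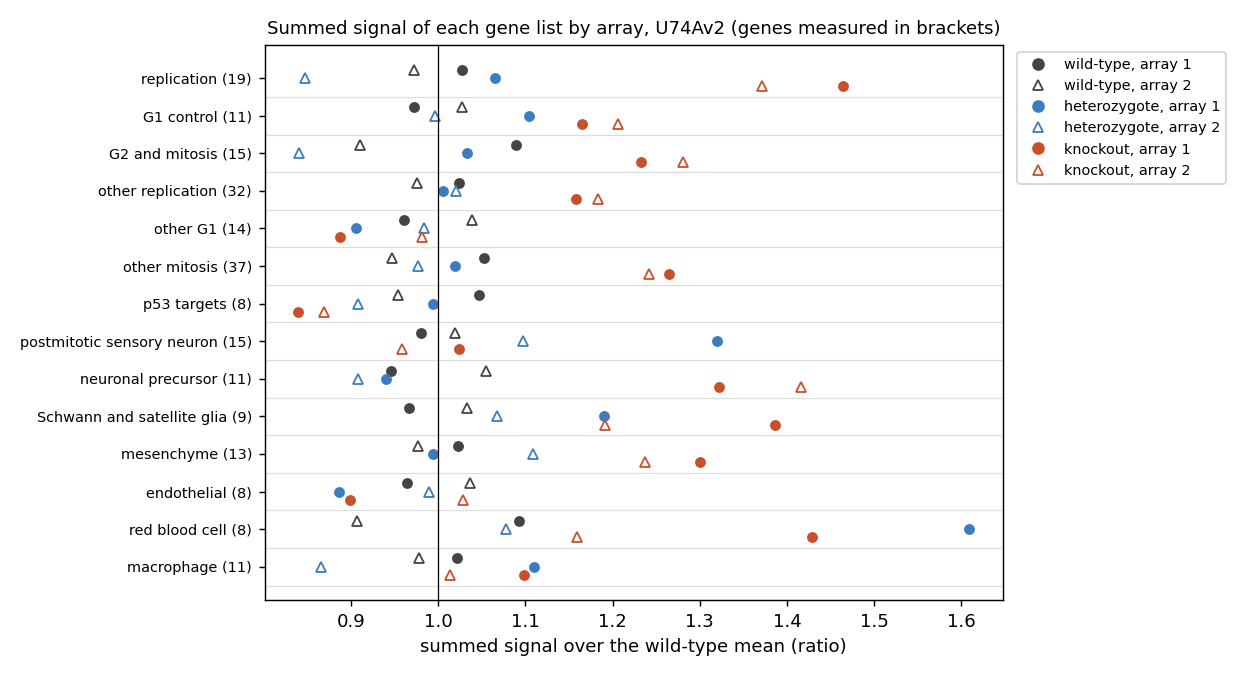
Summed signal of each gene list in each U74Av2 array, divided by the mean of the wild-type arrays (horizontal axis), with the number of measured genes in brackets; filled circles are number 1 arrays and open triangles number 2 arrays. Both knockout arrays stand above both wild-type arrays for the member lists of all 3 roles and for the other replication, other mitosis, precursor, glia, mesenchyme and red blood cell lists. They stand below for the p53 targets and overlap wild-type for the other G1, sensory neuron, endothelial and macrophage lists.

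Pou4f1 itself, read only on U74Bv2, gave 3313 in wild-type, 2196 and 3570.1 in heterozygote and 549.8 and 904 in knockout arrays, lowest in the arrays labelled knockout. Probe sets for 18S ribosomal RNA were 10.1 to 13.2 times brighter in number 1 than in number 2 arrays of a genotype, and were also brighter in knockout than in wild-type. The ratio of 3′ to 5′ signal was 1.08 to 1.31 for actin and 0.872 to 1.07 for Gapdh over the 6 U74Av2 arrays. Whether RNA quality or the ribosomal share bears on the members was not tested.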

How the data were processed

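RNA of pooled trigeminal ganglia was measured on 11 Affymetrix arrays. The deposited intensities, linear and 1 for each probe set, come from MAS5 according to the submitters' processing notes, which name no version or target here. The trimmed mean (2%) was 500.26 to 500.29 on U74Av2 and 497.61 to 498.38 on U74Bv2, so no scaling was added. The number of arrays limits the precision.

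Symbols came from the platform annotation, updated through Entrez identifiers with the RefSeq table of GRCm38.p6 (10839 and 10550 matched, 0 changed); probe sets carrying more than 1 symbol stayed unnamed. Names ending in _f_at, _r_at, _s_at, _i_at or _g_at mark relaxed designs, 7 of the tested member probe sets. Sequences are RefSeq's.

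Signals were analysed as log2(signal + pseudocount), with 50.0 on U74Av2 and 49.8 on U74Bv2, 0.1 of the trimmed mean, so that changes of dim probe sets are understated. Probe sets at or below the 40th percentile of mean log2 were left out, leaving 7453 and 7446. For each array type, limma 3.58.1 (R 4.3.3) fitted genotype over all its arrays, then eBayes with a trend on intensity; the array number was compared in a model with genotype and number. A call is a two-sided Benjamini-Hochberg adjusted p under 0.05 over the type. The fit was run on simulated data with independent noise and planted differences larger than that of any member. That run does not cover differences of the members' size. Python 3.11.15 and matplotlib 3.10.9 made counts and plots.

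The members and lists were chosen with earlier results of these data known. Full statistics were given for members called in any comparison, the 3 largest differences in each direction per role and the 2 brightest per role, on the brightest probe set of a gene; other members are given as values. Alternatives covered the pseudocount, filter, normalization, trend, probe set choice, relaxed designs, the replicate block, the control group and each array left out.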

Additional observations from a re-analysis of the deposited data

Results flagged for a closer look

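The 3 probe sets for 18S ribosomal RNA, which belong to no comparison of the members, were brighter in knockout than in wild-type U74Av2 arrays. The geometric mean was 2.48 times higher in knockout among number 1 arrays, at 12803 against 5173, and 1.90 times higher among number 2 arrays, at 974 against 511. In heterozygotes it was 6745 and 518.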

How the results depend on the processing

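The positive median of the members in knockout minus wild-type on U74Av2 was kept under all settings run, between 0.28 and 0.38. With the filter at the 60th percentile 22 genes were tested, and positive ones numbered 20 in knockout minus wild-type, 19 in knockout minus heterozygote, 10 in heterozygote minus wild-type and 17 in number 1 minus number 2. Leaving out 1 array at a time put the knockout minus heterozygote median between 0.27 and 0.50, with 0.50 reached without heterozygote array 1, and the members called on U74Bv2 in knockout minus wild-type between 0 and 1 (Bub1b, also without heterozygote array 1). The lone wild-type U74Bv2 array could not be left out of a comparison with wild-type. Same-numbered arrays deviated together (r = 0.53 to 0.62 between genotypes over U74Av2 probe sets, 0.10 on U74Bv2), but 2 numbers are too few to show pairing. With the number as a replicate block 1 member was called in knockout minus wild-type on U74Av2 (Ccnd1, 0.94, adjusted p = 0.0430), 1 in knockout minus heterozygote and 1 on U74Bv2 (Bub1b, 1.47, adjusted p = 0.0345). Over all probe sets the block raised the calls from 19 to 130, from 14 to 129 and from 104 to 216, and they were 0 to 15 on U74Av2 in knockout minus wild-type with 1 array left out. Other settings also moved these counts over all probe sets by more than 1.5 times. The 19 and 14 on U74Av2 became 11 and 8 with the filter at the 60th percentile, and knockout against all other arrays gave 65. On U74Bv2 the 104 in knockout minus wild-type became 21 with no filter, 40 with no intensity trend and 218 against all other arrays, and the 127 in knockout minus heterozygote became 54 with no filter, 81 with no intensity trend and 317 with the replicate block. Heterozygote minus wild-type on U74Bv2 went from 0 to 7 with the block. Number 1 minus number 2 went from 1820 to 1142 with no filter on U74Av2, and from 15 to between 0 (no intensity trend) and 60 (pseudocount of 0.3 of the trimmed mean) on U74Bv2. With 1 array left out at a time some small knockout minus wild-type differences changed sign: Lig1 ran from -0.26 to 0.23 (and was 0.12 against all other arrays), Rfc1 from -0.19 to 0.0048, Ccnb2 from -0.017 to 0.68, Cdkn1a from -0.64 to 0.14, Cdkn1c from -0.087 to 0.50 and Ccnd3 on U74Bv2 from -0.21 to 0.15 (0.061 with the replicate block). The cause was not tested. Fits within 1 array number were chosen after seeing the data.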
